A study of Mus musculus with 8 samples.

Results

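Atoh1, Barhl1, Barhl2, Nhlh1, Nhlh2, Neurod1 and Insm1 are transcription factor genes that mark successive steps in the life of the cerebellar granule neuron. They were chosen by name, and each was read from the rows of the deposited table whose platform annotation gave that symbol and no other. All 7 were found, among 14351 genes with such a row. Atoh1 had 2 rows, both of which are given, so the set covers 8 rows of 16317. Where a symbol had several rows, the brightest on average stands for the gene.

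The study profiled 8 mouse RNA samples in 3 groups, 1 per Affymetrix array, of a type whose probes span whole transcripts. There were 4 medulloblastomas from adult mice that carry a Rosa allele encoding FLAG-tagged Gli1, Math1-Cre to switch it on, and 1 targeted Ptch1 allele (Ptc+/-). The granule neuron precursors (GNPs) were purified from cerebella at postnatal day 8. One pair of GNP samples came from mice with the Rosa Gli1-FLAG allele and Math1-Cre, called Gli1-FLAG GNPs, and the other pair from Ptc+/- mice. Gli1 is the transcriptional activator of the hedgehog pathway, and Ptch1 encodes the receptor that holds the pathway in check. Math1 is the older name of Atoh1, so the Cre that switches on Gli1-FLAG is driven by control sequences of a gene described here. Tumours and GNPs differ in age, in preparation and in carrying both alterations, as well as in disease, and these cannot be told apart.

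Atoh1 encodes a basic helix-loop-helix (bHLH) protein that makes the upper rhombic lip produce granule cells and keeps GNPs dividing in response to Sonic hedgehog. Such proteins bind short DNA motifs called E-boxes as dimers with a broadly expressed E protein. Atoh1 is switched off as GNPs leave the cell cycle, while Neurod1, another bHLH gene, drives differentiation and survival of the young granule neurons. Nhlh1 and Nhlh2 encode a closely related pair of bHLH proteins found in newly born neurons. Barhl1 and Barhl2 encode homeodomain proteins of the same lineage, and Barhl1 is a known target of Atoh1. Insm1 encodes a zinc finger repressor active in neuronal precursors as they turn to differentiation.

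Intensities are given as log2(normalized intensity + 1), after quantile normalization, because array medians of the deposited values ran from 109 to 310. Differences carry their standard error (SE) from limma, and its p-values were adjusted for all 16317 rows after Benjamini and Hochberg, 0.05 being the threshold. The probes of each row differ, so levels are compared between samples and never between genes. In bulk RNA, fewer cells of a type cannot be told apart from less RNA per cell. Among the facts of the samples, Eif2s3y, a Y-linked gene, was at 8.97, 8.32, 4.55 and 8.84 in medulloblastomas 1 to 4; the Gli1-FLAG GNPs had 4.54 and 4.12 and the Ptc+/- GNPs 8.99 and 9.01. Y-linked signal and genotype therefore went together in the GNPs. Gli1 itself was at 10.58, 10.42, 10.52 and 10.90 in the tumours, 10.08 and 10.19 in Gli1-FLAG GNPs, and at 9.24 and 9.38 in Ptc+/- GNPs. The tumours and Gli1-FLAG GNPs carry the Gli1-FLAG allele, and whether this row also reads its RNA was not tested.

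Within the tumours, Atoh1 and its target Barhl1 rose above both kinds of GNP, while Nhlh2 fell below Ptc+/- GNPs. Against Ptc+/- GNPs, 2 of the 7 genes rose, 1 fell and 4 did not pass. Over all rows 16.5% passed in this comparison, 7.54% rising and 8.92% falling. Against Gli1-FLAG GNPs, where 10.3% of rows passed (4.65% rising, 5.63% falling), 2 of 7 rose and 0 fell. The fit gave unadjusted p-values under 0.05 to 4 of 7 genes in each of these comparisons. Over all 16317 rows, 5435 had such p-values against Ptc+/- GNPs and 4609 against Gli1-FLAG GNPs. The median difference over the 7 genes was -0.0039 against Ptc+/- GNPs and 0.12 against Gli1-FLAG GNPs, beside medians over all rows of 0.0093 and 0.0033. These comparisons share the tumour arrays.

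**Figure D1:**
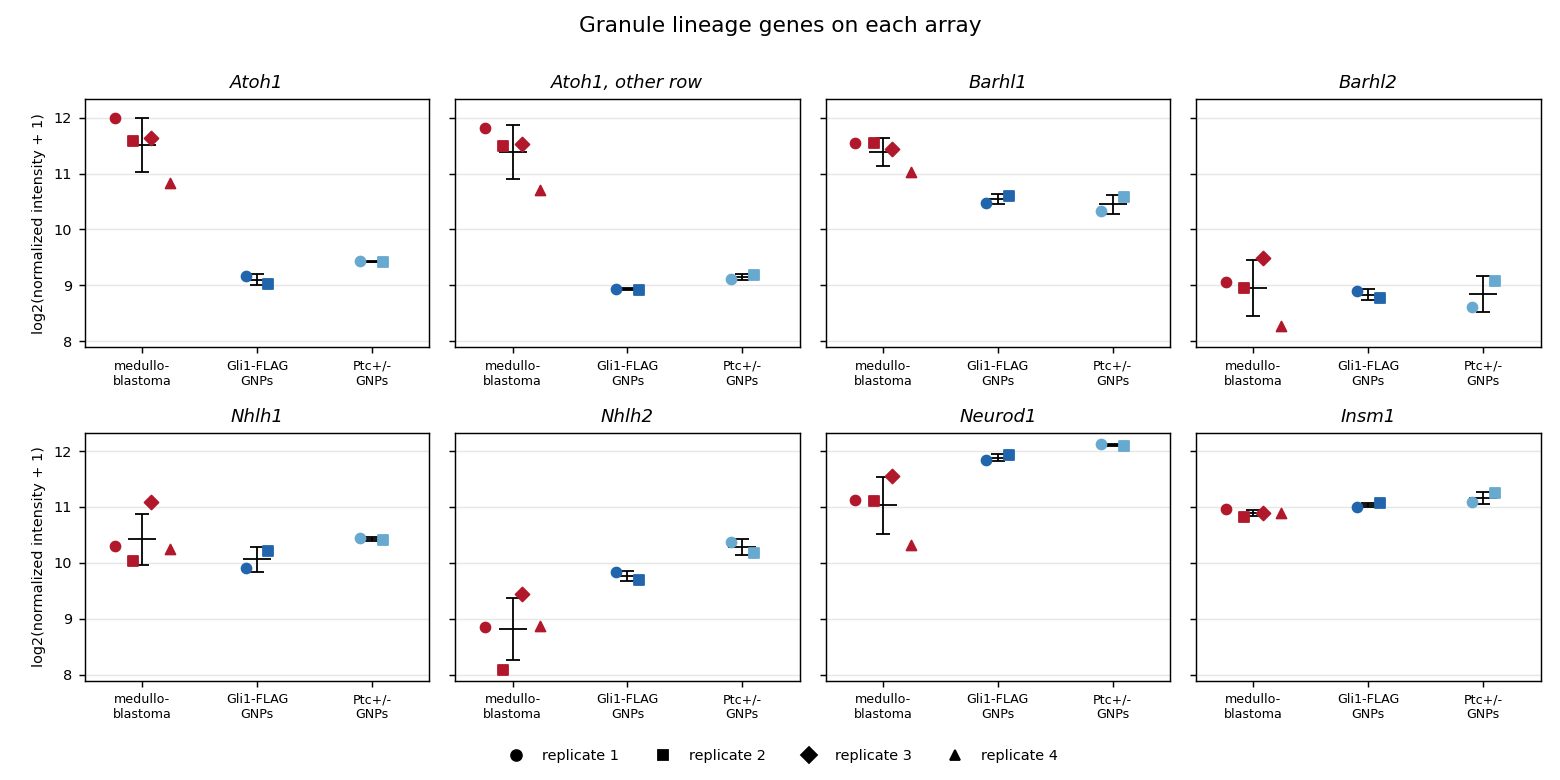
Level of each gene on each array, as log2(normalized intensity + 1), with a symbol for each replicate number, the group mean as a horizontal line and the SD as an error bar (n = 4 medulloblastomas, n = 2 in each GNP group). All 4 tumours lie above all 4 GNP arrays for Atoh1 and Barhl1 and below them for Nhlh2, Neurod1 and Insm1; levels of different genes are not comparable.

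Atoh1 was at 11.99, 11.59, 11.63 and 10.84 in medulloblastomas 1 to 4, at 9.17 and 9.03 in Gli1-FLAG GNPs, and at 9.43 and 9.41 in Ptc+/- GNPs. Every tumour array lay above every GNP array. The tumours averaged 11.51 ± 0.49 (SD, n = 4), the Gli1-FLAG GNPs 9.10 ± 0.10 (SD, n = 2) and the Ptc+/- GNPs 9.42 ± 0.01 (SD, n = 2). Tumours thus stood 4.26-fold above Ptc+/- GNPs (log2 difference 2.09 ± 0.30, SE; 95% interval 1.40 to 2.78; limma adjusted p = 0.00800). They stood 5.31-fold above Gli1-FLAG GNPs (2.41 ± 0.30; adjusted p = 0.00656). By p-value Atoh1 ranked at place 298 of 16317 rows in the first comparison and at place 140 in the second.

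The other Atoh1 row gave the same order of groups. It was at 11.82, 11.49, 11.52 and 10.71 in the tumours, at 8.94 and 8.92 in Gli1-FLAG GNPs, and at 9.12 and 9.19 in Ptc+/- GNPs. On each of the 8 arrays it was lower than the brighter row, by 0.09 to 0.17 in tumours, by 0.11 and 0.23 in Gli1-FLAG GNPs, and by 0.31 and 0.23 in Ptc+/- GNPs. The difference on this row was 2.23 ± 0.29 (SE; limma adjusted p = 0.00644) against Ptc+/- GNPs and 2.46 ± 0.29 (adjusted p = 0.00563) against Gli1-FLAG GNPs. The rows read 1 gene and are not independent. With only 2 arrays in each GNP group, the calls of Atoh1 leaned on each of these. On the brighter row, leaving out Ptc+/- GNP replicate 1 gave an adjusted p of 0.0854 and leaving out replicate 2 gave 0.0556, and against Gli1-FLAG GNPs it was 0.0898 and 0.0895 without either of their arrays. The other row lost its call against Ptc+/- GNPs without replicate 1 (adjusted p = 0.0772), and against Gli1-FLAG GNPs without their replicate 1 (0.0882) or 2 (0.0790). The difference itself stayed between 1.90 and 2.37 against Ptc+/- GNPs, and between 2.21 and 2.69 against Gli1-FLAG GNPs, over 17 alternative settings.

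Barhl1 followed Atoh1 at a smaller size. Its levels were 11.55, 11.54, 11.44 and 11.02 in the tumours, 10.48 and 10.61 in Gli1-FLAG GNPs, and at 10.33 and 10.57 in Ptc+/- GNPs. All tumours lay above all GNP samples, and medulloblastoma 4 was again the lowest of them. Barhl1 rose 1.91-fold against Ptc+/- GNPs (0.94 ± 0.19, SE; 95% interval 0.48 to 1.39; limma adjusted p = 0.0214) and 1.80-fold against Gli1-FLAG GNPs (0.85 ± 0.19; adjusted p = 0.0378). Its call against Ptc+/- GNPs was lost without Ptc+/- GNP replicate 1 (adjusted p = 0.168) or 2 (0.0777), and without either Gli1-FLAG array (0.0506 each). Against Gli1-FLAG GNPs the call held without medulloblastoma 4 (adjusted p = 0.0182) and was lost without any other array. The adjusted p there was 0.0796, 0.0631 and 0.0570 without medulloblastomas 1, 2 and 3, 0.281 and 0.198 without the Gli1-FLAG arrays, and 0.0612 and 0.0637 without the Ptc+/- arrays.

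Barhl2, the sister gene of Barhl1, had no call in either comparison. It was at 9.07, 8.95, 9.49 and 8.28 in the tumours, at 8.90 and 8.76 in Gli1-FLAG GNPs, and at 8.61 and 9.07 in Ptc+/- GNPs. The groups overlapped, with tumours both above and below the GNP arrays. The difference against Ptc+/- GNPs was 0.11 ± 0.32 (SE; 95% interval -0.64 to 0.85; limma adjusted p = 0.849). Against Gli1-FLAG GNPs it was 0.12 ± 0.32 (interval -0.63 to 0.87; adjusted p = 0.844). The difference between the responses of the sister genes was not tested.

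**Figure D2:**
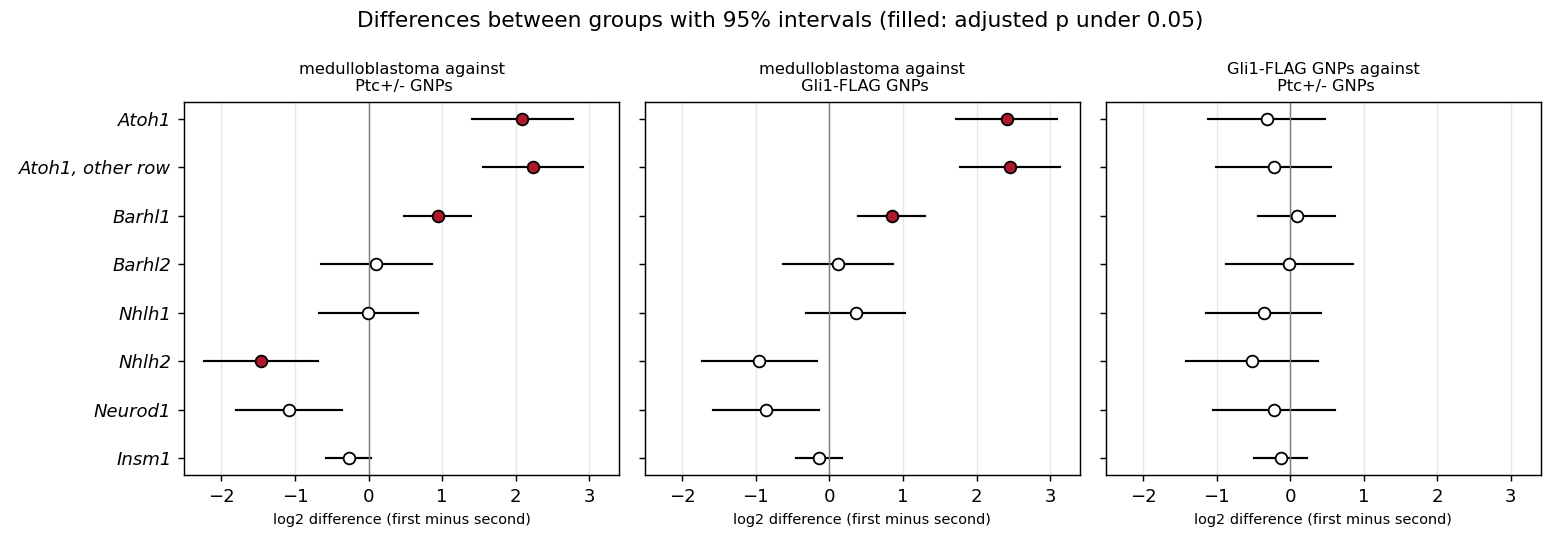
Difference in log2 level between groups for each gene (x axis, first group minus second), with the 95% interval from limma as a line; filled points passed the adjusted threshold. Atoh1 and Barhl1 lie right of 0 in both tumour comparisons and Nhlh2 left of 0, with no gene past the threshold between the GNP groups.

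Nhlh2 moved the other way. It was at 8.86, 8.09, 9.44 and 8.88 in the tumours, at 9.83 and 9.70 in Gli1-FLAG GNPs, and at 10.38 and 10.18 in Ptc+/- GNPs. The groups did not overlap, and Gli1-FLAG GNPs lay between the tumours and Ptc+/- GNPs. The tumours averaged 8.82 ± 0.55 (SD, n = 4), the Gli1-FLAG GNPs 9.77 ± 0.09 (SD, n = 2) and the Ptc+/- GNPs 10.28 ± 0.14 (SD, n = 2). Nhlh2 fell by 1.46 ± 0.33 (SE) against Ptc+/- GNPs, to 0.363 of their level (95% interval -2.24 to -0.68; limma adjusted p = 0.0279). Against Gli1-FLAG GNPs the difference was -0.95 ± 0.33 (interval -1.73 to -0.17) and did not pass (adjusted p = 0.113). The call against Ptc+/- GNPs was lost without Ptc+/- GNP replicate 1 (adjusted p = 0.178) or 2 (0.109), either Gli1-FLAG array (0.0582 and 0.0583) or medulloblastoma 1 (0.0592).

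Nhlh1, its close relative, overlapped between all groups but the GNP pair. The tumours were at 10.31, 10.04, 11.08 and 10.25, Gli1-FLAG GNPs at 9.91 and 10.22, and Ptc+/- GNPs at 10.45 and 10.40. The difference was -0.0039 ± 0.29 (SE; 95% interval -0.68 to 0.67; limma adjusted p = 0.994) against Ptc+/- GNPs. Against Gli1-FLAG GNPs it was 0.36 ± 0.29 (interval -0.32 to 1.03; adjusted p = 0.457). Medulloblastoma 3 was the highest tumour for Nhlh1 and Nhlh2 alike, and medulloblastoma 2 the lowest for both.

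Neurod1 was lower in every tumour than in every GNP sample. It was at 11.13, 11.10, 11.56 and 10.33 in the tumours, at 11.85 and 11.92 in Gli1-FLAG GNPs, and at 12.12 and 12.09 in Ptc+/- GNPs. Even so, the differences of -1.08 ± 0.31 (SE; 95% interval -1.80 to -0.36; limma adjusted p = 0.0527) against Ptc+/- GNPs and -0.86 ± 0.31 (interval -1.58 to -0.14; adjusted p = 0.121) against Gli1-FLAG GNPs did not pass. The first lay close to the threshold and passed under 7 of 17 alternative settings, among them without medulloblastoma 3 (adjusted p = 0.0292) or 4 (0.0293).

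Insm1 varied least. It was at 10.97, 10.82, 10.90 and 10.89 in the tumours, at 11.00 and 11.06 in Gli1-FLAG GNPs, and at 11.09 and 11.24 in Ptc+/- GNPs. Although no tumour reached the GNP arrays, the difference was small, at -0.27 ± 0.13 (SE; 95% interval -0.58 to 0.04; limma adjusted p = 0.198) against Ptc+/- GNPs. It was -0.14 ± 0.13 (interval -0.45 to 0.17; adjusted p = 0.526) against Gli1-FLAG GNPs. Over the 8 arrays Insm1 spanned 0.42, a range as small as or smaller than its own in only 5.49% of genes, whereas Atoh1 spanned 2.96 (wider than or equal to 95.5% of genes) and Nhlh2 2.29 (90.3%).

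Groups that do not overlap are common in these data. Tumours lay wholly above or below Ptc+/- GNPs in 42% of rows (19.9% above, 22.1% below) and wholly above or below Gli1-FLAG GNPs in 41% (19.6% above, 21.4% below). Of the 7 genes 5 did so in each case, 2 above and 3 below. Nhlh1 and Barhl2 were the exceptions.

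The GNP genotypes were set against each other at the same age. For 5 of the 7 genes both Gli1-FLAG samples lay below both Ptc+/- samples, whereas 46.3% of all rows did not overlap, 24% lower and 22.3% higher. No difference passed: 0 of 7 genes and 0 of 16317 rows had a limma adjusted p under 0.05, with unadjusted p under 0.05 for 0 of 7 genes and for 525 rows. The largest of the 7 was that of Nhlh2, at -0.51 ± 0.38 (SE; 95% interval -1.41 to 0.39; adjusted p = 1). Atoh1 differed by -0.32 ± 0.34 (interval -1.11 to 0.48) and Nhlh1 by -0.36 ± 0.33 (interval -1.14 to 0.42). Neurod1 (-0.22 ± 0.36), Insm1 (-0.13 ± 0.15), Barhl1 (0.09 ± 0.22) and Barhl2 (-0.01 ± 0.37) differed less. Neurod1 and Insm1 turned to 0.03 each with arrays centred on their medians.

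The stretches before the transcription starts of the genes that passed the threshold are shown because Atoh1 proteins act through E-boxes and the series concerns Gli1. RefSeq promoter entries of build GRCm38.p6 matched 6 of the 7 genes, and Barhl1 had 2 starts. The 250 bases before each start were searched on both strands for the E-box CANNTG, for its forms CAGCTG and CAGATG, which are themselves E-boxes, and for the Gli motif GACCACCCA. Capitals mark E-boxes in the sequences below, all written 5′ to 3′ on the strand of the gene. The Atoh1 stretch is chr6:64728875-64729124 on the plus strand and the Nhlh2 stretch chr3:102009895-102010144 on the plus strand. Those of Barhl1 are chr2:28916669-28916918 and chr2:28912496-28912745 on the minus strand.
Atoh1: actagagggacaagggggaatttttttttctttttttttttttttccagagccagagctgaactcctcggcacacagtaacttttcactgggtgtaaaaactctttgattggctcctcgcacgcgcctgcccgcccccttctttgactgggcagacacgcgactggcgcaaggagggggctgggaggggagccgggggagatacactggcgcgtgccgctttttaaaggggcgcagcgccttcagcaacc
Barhl1 upstream start: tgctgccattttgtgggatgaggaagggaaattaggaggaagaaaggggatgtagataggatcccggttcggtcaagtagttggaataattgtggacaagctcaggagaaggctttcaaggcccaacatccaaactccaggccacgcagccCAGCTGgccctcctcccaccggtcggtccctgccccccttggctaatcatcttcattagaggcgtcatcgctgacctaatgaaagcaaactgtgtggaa
Barhl1 downstream start: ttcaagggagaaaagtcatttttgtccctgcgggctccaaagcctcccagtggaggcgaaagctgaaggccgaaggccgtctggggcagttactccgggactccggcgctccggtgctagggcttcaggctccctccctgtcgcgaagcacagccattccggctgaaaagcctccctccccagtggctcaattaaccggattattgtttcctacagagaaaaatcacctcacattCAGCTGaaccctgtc
Nhlh2: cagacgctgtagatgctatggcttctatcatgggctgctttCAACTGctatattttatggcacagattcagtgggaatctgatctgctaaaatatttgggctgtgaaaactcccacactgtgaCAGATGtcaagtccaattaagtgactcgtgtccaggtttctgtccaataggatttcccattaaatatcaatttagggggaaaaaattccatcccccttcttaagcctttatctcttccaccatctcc

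Both Barhl1 stretches held 1 E-box each, in both cases CAGCTG, which began 99 bases before the upstream start and 15 bases before the downstream one. Of 32851 promoter stretches of the same length, 13.0% held CAGCTG, 14.4% CAGATG and 66.2% any E-box. The Nhlh2 stretch held CAACTG and CAGATG, beginning 209 and 127 bases before the start. Atoh1 held no E-box in this stretch. Of the genes not shown, Nhlh1 had 1 E-box (CAGATG), Neurod1 had 1 (CATATG) and Barhl2 had 2 (CACCTG and CAGGTG). The Gli motif was found in none of the 7 stretches and in 0.225% of all promoters. These matches are letters only and do not show binding.

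The tumours varied among themselves in which gene was high. Medulloblastoma 4 was the lowest of the 4 for 4 of the 7 genes, namely Atoh1, Barhl1, Barhl2 and Neurod1, while medulloblastoma 3 was the highest for Barhl2, Nhlh1, Nhlh2 and Neurod1. Medulloblastoma 1 was the highest for Atoh1, Barhl1 and Insm1, and medulloblastoma 2 the lowest for Nhlh1, Nhlh2 and Insm1. The SD among tumours was 0.55 for Nhlh2, 0.51 for Neurod1, 0.50 for Barhl2, 0.49 for Atoh1 and 0.46 for Nhlh1, against a median of 0.29 over all genes. Barhl1 (0.25) and Insm1 (0.06) varied less than that median.

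Markers of other cerebellar cell types also differed among the tumours. The summed intensity of 5 measured of 7 Purkinje cell markers was 1673, 4489, 643 and 539 in medulloblastomas 1 to 4, 287 to 288 in Gli1-FLAG GNPs and 296 to 317 in Ptc+/- GNPs. For 4 measured of 5 GABA interneuron markers the sums were 585, 2231, 124 and 119 in the tumours, 561 to 639 in Gli1-FLAG GNPs and 492 to 535 in Ptc+/- GNPs. Medulloblastoma 2, the lowest for Nhlh1 and Nhlh2, thus had the highest sum of both. Among the Purkinje markers Foxp2 was instead lowest of the tumours there (7.36) and highest in medulloblastoma 3 (8.91). The sum of 6 of 7 markers of astrocytes and Bergmann glia ran from 362 in medulloblastoma 3 to 5356 in medulloblastoma 2. It ran from 4286 to 4778 in Gli1-FLAG GNPs and from 2473 to 3668 in Ptc+/- GNPs. Single genes of this sum disagreed, and none passed. Against Ptc+/- GNPs Gfap, S100b and Aldoc differed by 0.73, 1.53 and 1.01, and Aqp4, Fabp7 and Aldh1l1 by -2.77, -2.11 and -2.44. That of 4 of 6 oligodendrocyte markers ran from 1132 to 3644 in tumours, 2091 to 2219 in Gli1-FLAG GNPs and 1404 to 1406 in Ptc+/- GNPs. Microglial markers (7 of 7) summed to 2655 to 6038 in tumours, 1433 to 1662 in Gli1-FLAG GNPs and 1259 to 1532 in Ptc+/- GNPs, and endothelial markers (7 of 7) to 597 to 771, 2147 to 2156 and 1393 to 3801 in that order. For unipolar brush cells and cerebellar nuclei (3 of 5) the sums were 169.6 to 230.4, 573 to 576 and 512 to 622 in the same order. No measured marker was at 0 on every array.

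Marker genes that passed the threshold did so against both GNP groups, apart from Cldn5, which fell against Ptc+/- GNPs only. The microglial complement genes C1qa, C1qb and C1qc rose by 1.64, 2.04 and 2.00 against Ptc+/- GNPs, with limma adjusted p of 0.0215, 0.0127 and 0.0138. The other 4 of the 7 microglial genes did not pass, and their differences from Ptc+/- GNPs were 1.41 for Aif1, 0.70 for Cx3cr1, -0.12 for Csf1r and -0.33 for Itgam, which was lower in all tumours than in all GNP samples. The endothelial genes Kdr, Tek and Esam fell, with differences of -3.02, -2.60 and -1.90 and adjusted p of 0.00751, 0.0119 and 0.0139, and Pecam1 fell by 2.00 (adjusted p = 0.00960). The endothelial genes Cdh5 (-1.26) and Flt1 (-0.11) did not pass. Pax2, which marks interneuron precursors, fell by 1.53 (adjusted p = 0.0126). The other measured interneuron markers, Gad1 (-0.78), Gad2 (-0.30) and Slc32a1 (0.17), did not pass. Eomes, a gene of unipolar brush cells, which also come from the rhombic lip, fell by 2.72 (adjusted p = 0.000902). Lmx1a (0.05) and Tbr1 (-0.14), the other measured genes of that list, did not pass.

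**Figure D3:**
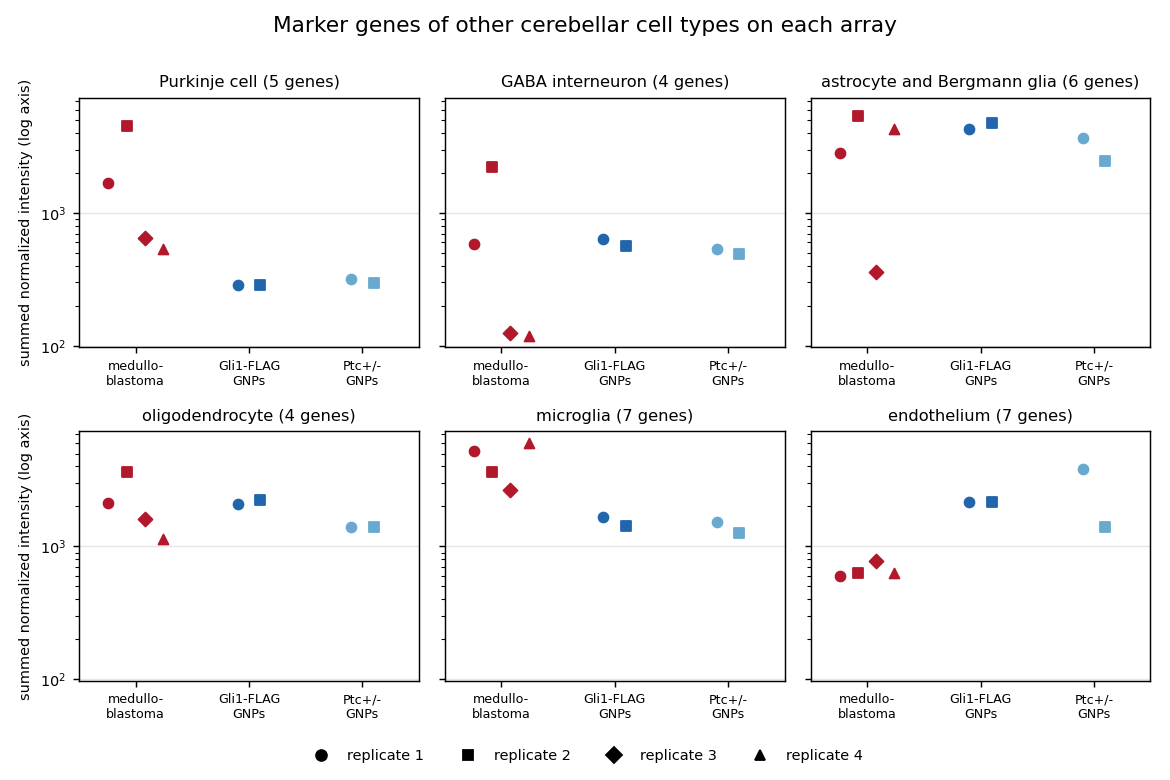
Summed normalized intensity (log axis) of marker genes of 6 other cell types on each array, with a symbol for each replicate number. Medulloblastoma 2 is the highest array for Purkinje and interneuron markers, all tumours are above the GNPs for microglial markers and below them for endothelial markers.

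The part of these cells in the results for the granule lineage genes was not tested. As measurements, Atoh1 was at 11.99, 11.59, 11.63 and 10.84 in medulloblastomas 1 to 4. In the same order the astrocyte sums were 2834, 5356, 362 and 4260, and the interneuron sums 585, 2231, 124 and 119. The microglial sums were 5231, 3638, 2655 and 6038. Without medulloblastoma 2 the difference of Atoh1 from Ptc+/- GNPs was 2.07 (limma adjusted p = 0.0181) and that of Nhlh2 was -1.23 (adjusted p = 0.0222). Without medulloblastoma 3, the tumour with little Y-linked signal, these differences were 2.03 (adjusted p = 0.0141) and -1.66 (adjusted p = 0.0146).

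E proteins are the dimer partners of Atoh1. Of their 3 genes, 0 rose and 1 fell against Ptc+/- GNPs, where 7.54% of all rows rose and 8.92% fell. Their median was -0.15 beside 0.0027 over all genes. Tcf12 fell by 0.66 ± 0.15 (SE; limma adjusted p = 0.0274), while Tcf3 differed by 0.36 ± 0.16 (adjusted p = 0.164) and Tcf4 by -0.15 ± 0.17 (adjusted p = 0.584). Against Gli1-FLAG GNPs Tcf12 differed by -0.49 ± 0.15 and did not pass (adjusted p = 0.0773). The median of the 3 genes turned to 0.16 with arrays centred on their medians and to 0.03 with cyclic loess, and the call of Tcf12 was lost with the first of these. Id genes encode proteins that tie up E proteins and so hold bHLH factors off DNA. Of the 4, 0 passed in either direction against either GNP group. Id1 (0.09 ± 0.20) and Id2 (-0.16 ± 0.22) had smaller differences from Ptc+/- GNPs, whereas Id3 (-1.26 ± 0.67; adjusted p = 0.234) and Id4 (-1.66 ± 0.64; adjusted p = 0.118) had wide errors. Id4 was at 7.41, 8.29, 6.40 and 5.71 in the tumours, 8.56 and 8.69 in Gli1-FLAG GNPs, and at 8.81 and 8.41 in Ptc+/- GNPs, so that all tumours lay below the GNPs.

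Hes and Hey genes encode bHLH repressors, mostly induced by Notch. Of 6, 0 rose and 1 fell against each GNP group. Beside this, 7.54% of all rows rose and 8.92% fell against Ptc+/- GNPs, and 4.65% and 5.63% against Gli1-FLAG GNPs. The medians of the 6 were -0.18 against Ptc+/- GNPs and -0.08 against Gli1-FLAG GNPs. Hey2 fell by 2.14 ± 0.27 (SE; limma adjusted p = 0.00626) and by 1.91 ± 0.27 (adjusted p = 0.0105). Its tumour level of 4.61 is near the bottom of the scale, so the size is not exact. Hey1 (0.97 ± 0.27; adjusted p = 0.0511) and Hes5 (0.67 ± 0.20; adjusted p = 0.0602) were above Ptc+/- GNPs in 4 of 4 tumours without passing.

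Other neural bHLH genes moved in both directions. The list held 18 genes, Nhlh1, Nhlh2 and Neurod1 among them, of which 16 were measured. Against Ptc+/- GNPs, where 7.54% of all rows rose and 8.92% fell, 4 rose and 2 fell, Nhlh2 being 1 of these. The median was 0.05. Against Gli1-FLAG GNPs 4 rose and 1 fell, beside 4.65% and 5.63% of all rows, with a median of -0.04. The 4 that rose against both were Atoh7, Olig1, Olig2 and Olig3. Atoh7, a relative of Atoh1 best known for retinal ganglion cells, was at 8.82, 8.92, 9.33 and 8.21 in the tumours, 7.33 and 7.60 in Gli1-FLAG GNPs, and at 6.91 and 7.25 in Ptc+/- GNPs. It rose 3.35-fold against Ptc+/- GNPs (1.74 ± 0.30, SE; limma adjusted p = 0.0129) and 2.56-fold against Gli1-FLAG GNPs (adjusted p = 0.0342).

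Olig3 marks progenitors of the dorsal hindbrain, the rhombic lip included. It was at 9.86, 9.68, 8.07 and 9.44 in the tumours, 7.13 and 6.84 in Gli1-FLAG GNPs, and at 7.22 and 7.60 in Ptc+/- GNPs. The tumours lay above all GNP samples, with medulloblastoma 3 the lowest of them, and the difference was 1.85 ± 0.48 (SE; limma adjusted p = 0.0390) against Ptc+/- GNPs and 2.28 ± 0.48 (adjusted p = 0.0304) against Gli1-FLAG GNPs. Olig1 and Olig2, known from the oligodendrocyte lineage, rose by 2.39 ± 0.42 (adjusted p = 0.0139) and 1.59 ± 0.29 (adjusted p = 0.0147) against Ptc+/- GNPs. Against Gli1-FLAG GNPs they rose by 1.71 (adjusted p = 0.0458) and 1.39 (adjusted p = 0.0299). Among 4 measured oligodendrocyte markers 1 rose and 0 fell against each GNP group, the riser being the precursor gene Pdgfra (1.16; adjusted p = 0.0183 against Ptc+/- GNPs). Over all rows 7.54% rose and 8.92% fell against Ptc+/- GNPs, and 4.65% and 5.63% against Gli1-FLAG GNPs. Mbp, Mog and Mag did not pass, with differences of -0.49, -1.05 and -2.03 from Ptc+/- GNPs. From Gli1-FLAG GNPs they differed by -1.34, -1.98 and -2.78. The myelin gene Mbp was at 9.79, 10.94, 5.97 and 6.10 in the tumours, at 9.52 and 9.56 in Gli1-FLAG GNPs, and at 8.58 and 8.80 in Ptc+/- GNPs. Olig1 was at 9.23, 9.38, 8.56 and 10.31 in medulloblastomas 1 to 4, so the tumours with low Mbp had both its lowest and its highest tumour level. The part of oligodendrocyte lineage cells in these rises was not tested. Neurog1, a proneural gene, fell by 2.11 ± 0.33 against Ptc+/- GNPs (adjusted p = 0.0104) and by 1.98 ± 0.33 against Gli1-FLAG GNPs (adjusted p = 0.0161), to a tumour mean of 3.99 at the bottom of the scale.

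**Figure D4:**
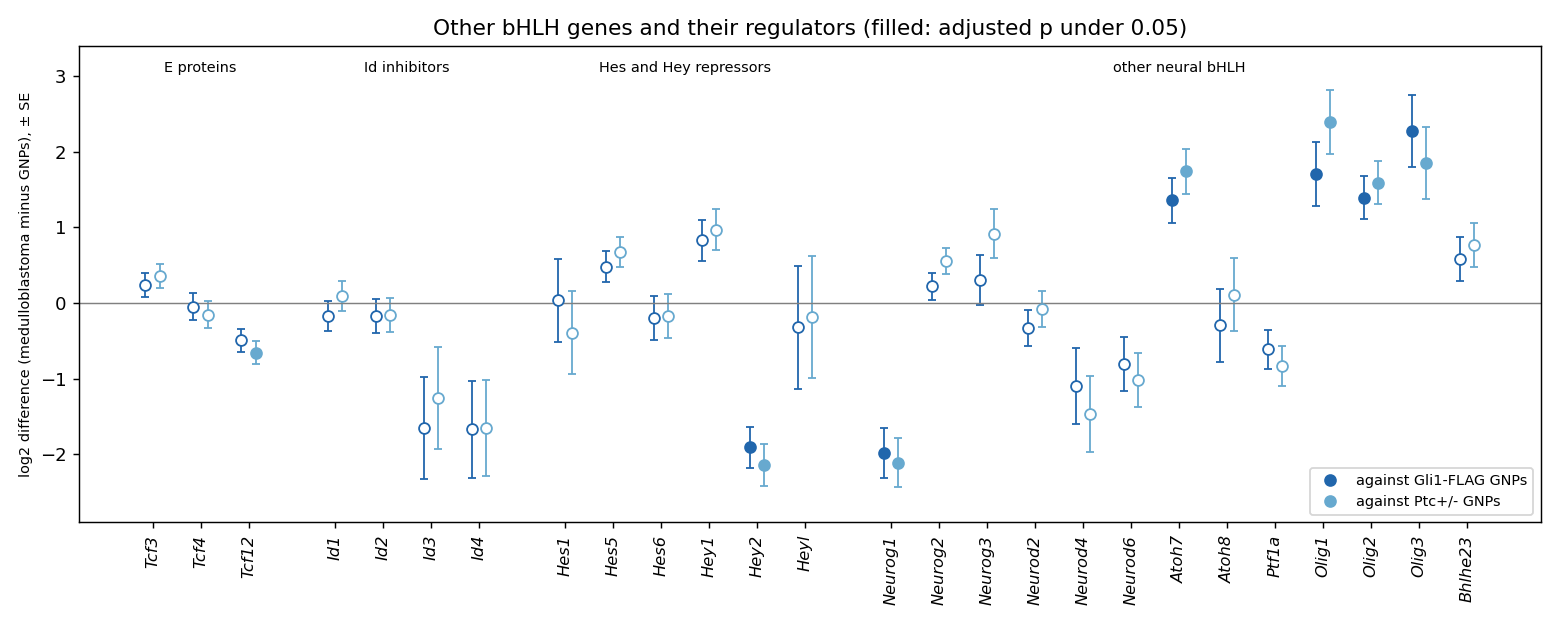
Difference in log2 level (medulloblastoma minus GNPs, y axis) with SE for genes of 4 lists, leaving out Nhlh1, Nhlh2 and Neurod1, against Gli1-FLAG GNPs in dark blue and against Ptc+/- GNPs in light blue; filled points passed the adjusted threshold. Among the genes shown, Atoh7 and the Olig genes are the filled points above 0, and Neurog1, Hey2 and Tcf12 (against Ptc+/- GNPs alone) those below.

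Genes that Atoh1 is reported to regulate were called in both directions. Of 8 listed, 7 were measured, with 2 rising, 2 falling and 3 not passing against Ptc+/- GNPs, where 7.54% of all rows rose and 8.92% fell. Their median of 0.11 turned to -0.01 with arrays centred on their medians. Barhl1 was 1 of the risers. Rassf4, a Ras association domain gene, was the other, at 0.85 ± 0.21 (SE; limma adjusted p = 0.0354). The Kruppel-like factor gene Klf7 fell by 0.89 ± 0.23 (adjusted p = 0.0400). Smad7, an inhibitor of BMP and TGF-beta signalling, fell by 1.95 ± 0.37 (adjusted p = 0.0176) and by 1.96 ± 0.37 against Gli1-FLAG GNPs (adjusted p = 0.0237). It was at 6.68, 7.14, 6.75 and 5.64 in the tumours, 8.57 and 8.46 in Gli1-FLAG GNPs, and at 8.45 and 8.55 in Ptc+/- GNPs. Against Gli1-FLAG GNPs 1 of the 7 rose, Barhl1, and 1 fell, beside 4.65% and 5.63% of all rows.

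Among 10 measured genes of granule neuron differentiation, of 12 listed, 0 rose and 3 fell against Ptc+/- GNPs, beside 7.54% and 8.92% of all rows. Their median was 0.06. Cntn2, a cell adhesion molecule of newly postmitotic granule cells, fell by 1.17 ± 0.29 (SE; limma adjusted p = 0.0354), and the migration gene Dcx fell by 1.00 ± 0.24 (adjusted p = 0.0305). Neither passed against Gli1-FLAG GNPs (adjusted p = 0.0536 for Cntn2 and 0.0764 for Dcx). Sema6a, needed for granule cells to begin radial migration, fell by 1.56 ± 0.30 (adjusted p = 0.0178) and by 1.31 ± 0.30 against Gli1-FLAG GNPs (adjusted p = 0.0379). Gabra6, a receptor subunit of mature granule neurons, was at 8.11, 9.79, 6.77 and 4.41 in the tumours, 4.54 and 4.25 in Gli1-FLAG GNPs, and at 4.02 and 3.97 in Ptc+/- GNPs. It was thus highest in medulloblastomas 1 and 2, which also had the highest sums of Purkinje cell markers, and did not pass (3.28 ± 1.26; adjusted p = 0.115). The remaining measured genes of the list did not pass against either GNP group. From Ptc+/- GNPs, Grin2c differed by 1.62, Nfia by 0.40, Nfix by 0.28, Rbfox3 by 0.19, Neurod2 by -0.08 and Nfib by -0.10.

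Of 9 measured of 10 regulators of the rhombic lip and GNPs, 2 rose and 2 fell against Ptc+/- GNPs, beside 7.54% and 8.92% of all rows. Their median was 0.04 (0.30 after centring each array on its median). Gli1 rose by 1.29 ± 0.17 (SE; limma adjusted p = 0.00666) and Mycn, which hedgehog signalling induces in GNPs, by 0.79 ± 0.16 (adjusted p = 0.0183). Pax6, a paired homeobox gene of the granule lineage, fell by 1.38 ± 0.35 (adjusted p = 0.0373) and the homeobox gene Meis1 by 0.59 ± 0.13 (adjusted p = 0.0277). From Gli1-FLAG GNPs, which carry the Gli1-FLAG allele as the tumours do, Gli1 differed by 0.47 ± 0.17 and did not pass (adjusted p = 0.127). In that comparison 1 rose, Mycn (0.73 ± 0.16; adjusted p = 0.0313), and 0 fell, beside 4.65% and 5.63% of all rows. The other 5 of the 9 did not pass against either GNP group. Zic1 averaged 11.63 in tumours, 11.69 in Gli1-FLAG GNPs and 11.59 in Ptc+/- GNPs, Zic2 averaged 10.63, 11.15 and 11.08, and Zic4 averaged 9.09, 8.64 and 9.14 in the same order. Ccnd2 averaged 12.20, 12.14 and 12.01. Meis2 averaged 4.63, 4.39 and 4.41, near the bottom of the scale in every group. Thus 8 of these 9 genes had levels well above the bottom of the scale in all groups, and Meis2 did not. Such levels cannot check the labelled cell type, because markers of other cells reached them too. Aqp4 averaged 10.67 in Gli1-FLAG GNPs and 10.05 in Ptc+/- GNPs, and Mbp 9.54 and 8.69.

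None of these list calls was independent of single arrays. Of 17 calls against Ptc+/- GNPs among the 49 measured genes of these 7 lists other than the 7 described first, 0 held without Ptc+/- GNP replicate 1 and 2 without replicate 2. Between 9 and 17 held without each of the other arrays. Of 9 calls against Gli1-FLAG GNPs, 0 held without either Gli1-FLAG array and 2 to 9 without each of the others. No call changed direction under any of the 17 settings. A GNP group reduced to 1 array was assumed to vary like the other groups. Over all rows too, far fewer passed against a GNP group reduced in this way, so such losses are not particular to the listed genes.

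The profile of Atoh1 over the 8 arrays was compared with those of 14062 other named genes, each profile taken minus its own mean. The closest were Ntn3 (netrin 3), Tmtc1, Rtn4r, Ntrk3 and Mical1, with root mean square differences of 0.24, 0.25, 0.25, 0.26 and 0.28 on the log2 scale. Ntrk3, the receptor gene for neurotrophin 3, averaged 10.92 in tumours, 8.36 in Gli1-FLAG GNPs and 8.78 in Ptc+/- GNPs. Rtn4r, which encodes the Nogo receptor, averaged 9.38, 7.27 and 7.79 in the same order. Like Atoh1, Rtn4r (8.71), Ntn3 (8.35), Tmtc1 (8.88) and Ntrk3 (10.70) were lowest among tumours in medulloblastoma 4, and Mical1 was not. The closest to Nhlh2 were Zfp759, the receptor phosphatase gene Ptpro and Zfp788, at 0.13, 0.15 and 0.16. Ptpro averaged 7.04 in tumours, 7.99 in Gli1-FLAG GNPs and 8.48 in Ptc+/- GNPs. The other 5 genes spanned less than 2 over the arrays and were not compared in this way. These neighbours were picked for likeness over the same 8 arrays in 3 groups, so shared patterns partly follow from that choice. They carry no test.

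**Figure D5:**
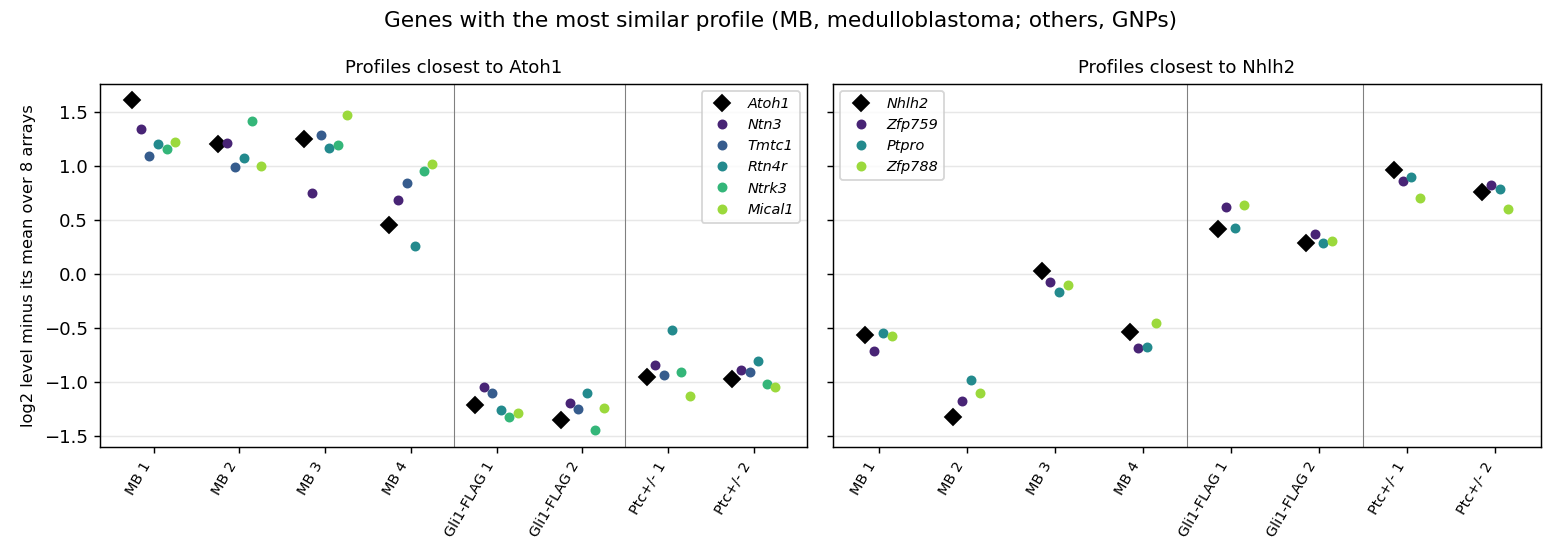
Log2 level minus its mean over the 8 arrays (y axis) for Atoh1 with its 5 closest genes (left) and Nhlh2 with its 3 closest (right), by array (x axis; MB, medulloblastoma). Tumours and GNPs fall on opposite sides of 0 for every gene of the Atoh1 panel, and medulloblastoma 2 is the lowest array for each gene of the Nhlh2 panel.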

How the data were processed

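The series measured RNA from 4 medulloblastomas and from 2 GNP samples of each of 2 genotypes. The authors deposited 1 whole-number intensity per transcript cluster and array, on a linear scale, for 16317 rows. Genome build mm8 is named, per the submitters' processing notes; how background was corrected, probes summarized and arrays scaled is not given in the sources used here. Array medians differed 2.84-fold, so quantile normalization was applied across the 8 arrays, the 1 value under 0 was set to 0, and log2(intensity + 1) was used. Fold changes are on that scale, which understates dim genes. No detection p-value accompanies the intensities, and dim rows may hold background alone. Precision is limited by how few arrays there are.

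Rows were named from the platform annotation: 14551 had 1 symbol, 1146 several and 620 none here. All rows entered 1 model, with a mean for each of 3 groups, in limma 3.58.1 (lmFit, eBayes; 5 residual and 2.45 prior degrees of freedom) in R 4.3.3, with two-sided Benjamini-Hochberg adjusted p-values, and was tested on simulated data. The comparison between GNP groups equals the difference of the other 2. Nothing says that the biological replicates came from separate animals, so p-values reflect the spread among these samples, which may be technical.

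The genes, lists and tests were chosen with earlier results of these data known. All 7 genes were named, as were all E protein and Id genes, of every other list and tumour comparison the members past the threshold (at most the 4 with the lowest p), and the genes closest in profile to any of the 7 that spanned at least 2. Genes given to show a value beside a result were chosen after their values were seen. These were Eif2s3y, Mbp, Gabra6, Hey1, Hes5 and Cldn5. They also included members of the cell type marker, granule neuron differentiation and rhombic lip lists that did not pass. Alternatives covered the arrays fitted, a replicate block, median centring and cyclic loess, leaving out dim rows, trend and robust eBayes, array weights, an offset of 16, 1 row per symbol and each array left out. No slide or scan date is given.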

Additional observations from a re-analysis of the deposited data

How the results depend on the processing

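Atoh1 kept its direction in both tumour comparisons, as did Barhl1, Nhlh2, Neurod1 and Insm1, under all 17 alternatives. Against Ptc+/- GNPs, Barhl1 was past the threshold under 12 of these, Nhlh2 under 11 and Neurod1, not called there, under 7. The cause of these changes was not tested beyond what fewer arrays imply. With only the arrays of the compared groups, 1197 rows passed against Ptc+/- GNPs (1 of the 7 genes, Atoh1), 811 against Gli1-FLAG GNPs (1 of the 7) and 4 between the GNP groups. With arrays centred on their medians, the split against Ptc+/- GNPs was 1713 rises and 1352 falls, against 1231 and 1456, and the median of all rows moved to 0.13. Against Gli1-FLAG GNPs 1 of the 7 then passed, Barhl1 having an adjusted p of 0.0851. Of the other neural bHLH genes, 7 rather than 4 rose against Ptc+/- GNPs under that centring. Array weights per group gave 3566 rows and 4 of the 7 genes against Gli1-FLAG GNPs, adding Nhlh2 and Neurod1, and 3 rows between the GNP groups. Cyclic loess and the trend and robust setting each gave 1 row there.

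The labels' replicate numbers did not pair the samples: deviations of same-numbered samples correlated at -0.01 between the GNP groups, -0.01 between tumours and Gli1-FLAG GNPs, and -0.07 between tumours and Ptc+/- GNPs. With the replicate block, which drops medulloblastomas 3 and 4, 1066 rows passed against Gli1-FLAG GNPs, 2019 against Ptc+/- GNPs and 1 between the GNP groups. Neurod1 then passed against Ptc+/- GNPs (adjusted p = 0.0358).

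Leaving out 1 array at a time, 128 to 2898 rows and 0 to 4 of the 7 genes passed against Ptc+/- GNPs. The lowest counts were 128 without Ptc+/- GNP replicate 1, 460 without replicate 2, 1231 and 1227 without the Gli1-FLAG arrays, and 1751 without medulloblastoma 1. Against Gli1-FLAG GNPs 62 to 1980 rows and 0 to 2 of the 7 passed, with 62 and 71 without the Gli1-FLAG arrays, 838 and 821 without the Ptc+/- arrays, and 802 without medulloblastoma 1. Between the GNP groups 0 to 4 rows passed.

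Differences near 0 changed sign. Against Ptc+/- GNPs Barhl2 was -0.014 under median centring and -0.12 to 0.33 with 1 array left out, below 0 without medulloblastoma 3 (-0.077) or Ptc+/- GNP replicate 1. Nhlh1 was 0.033 with cyclic loess and -0.22 to 0.12 with 1 array left out. Against Gli1-FLAG GNPs Barhl2 was -0.065 to 0.34 with 1 array left out, below 0 without medulloblastoma 3. Between the GNP groups Neurod1 was 0.030 and Insm1 0.028 with centred arrays. With 1 array left out Barhl2 was -0.24 to 0.22 and Barhl1 -0.035 to 0.21.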
